A study of Mus musculus with 16 samples.

Results

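The set described here holds 44 muscle genes read in whole mouse aortas, most of them parts of the sarcomere of heart or skeletal muscle, with hormones, calcium-handling proteins and transcription factors of the same muscles. The genes were listed by symbol, and all 44 were found among 24562 gene entries of the deposited count table. They were chosen with the aorta values in view, so the aorta values of cre against wild type are given as a description and carry no test for them. By role, 5 are enriched in heart atria (Nppa, Sln, Mybphl, Sbk3 and Bmp10) and 2 mark ventricles and slow fibres (Myh7 and Pln). A further 13 are heart genes, 8 are shared by heart and skeletal muscle, 2 belong to slow skeletal fibres and 14 to fast or general skeletal muscle.

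RNA was sequenced from 16 libraries of mice of the atherosclerosis-prone ApoE-/- strain. There were 5 aortas labelled wt, called wild type here, 5 aortas labelled cre, which the series describes as lacking CD40 in B cells, and 3 libraries of each label from B1b cells, a B cell subset sorted from the peritoneal cavity. Both labels share the ApoE deletion. Neither the promoter that drives Cre, nor the part of the gene removed, nor the age, sex and diet of the mice was stated in the labels. The counts of Cd40, summed over the whole transcript, did not differ past the threshold between labels (edgeR quasi-likelihood test with Benjamini-Hochberg adjustment), with a log2 fold change of -0.16 (95% interval -0.45 to 0.13, adjusted p = 0.679) in B1b cells and -0.35 (adjusted p = 0.711) in aortas. Cre therefore means a library labelled cre throughout. Libraries held 6815829 to 9911226 counts in B1b cells and 1645926 to 7300894 in aortas. Cre aorta 2 (1645926 counts) and wild-type aorta 5 (1979777 counts) were the shallowest. The tissue labels matched their markers: with wild-type libraries of both tissues scaled together, 10 smooth muscle genes summed to 13169.8 to 18808 CPM (counts scaled to a common library size) in aortas and 13.7 to 22.2 CPM in B1b cells, and 6 B cell genes to 38.8 to 57.5 and 7562 to 8145 CPM. In whole tissue, fewer cells of a type and less RNA per cell cannot be told apart.

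The sarcomere is the contractile unit of striated muscle: myosin motors in the thick filament pull on actin in the thin filament when calcium binds the troponin complex, and titin spans the unit as a spring. Heart and skeletal muscle use different genes for the same parts, and heart atria, heart ventricles, slow fibres and fast fibres each have their own isoforms. The wall of the aorta contracts with smooth muscle, which has no sarcomeres, and the root of the aorta joins the heart. The adult mouse ventricle uses Myh6 as its main myosin and Myh7 as a minor one, and atria make Nppa and Sln in large amount.

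Promoters of 4 members are printed: Nppa, the most abundant atrial-enriched member, the heart and skeletal alpha-actins Actc1 and Acta1, which perform the same task in different muscles, and Myh4, the fast myosin with the widest gap between the aorta groups. Each line gives the 150 bases before the transcription start, 5′ to 3′ on the gene's strand, from RefSeq on GRCm38.p6. Capitals mark matches on either strand to the TATA box TATAAA, the MCAT sequence CATTCC and the CArG box, the site of serum response factor.
Nppa, chr4:148000572-148000721, plus strand: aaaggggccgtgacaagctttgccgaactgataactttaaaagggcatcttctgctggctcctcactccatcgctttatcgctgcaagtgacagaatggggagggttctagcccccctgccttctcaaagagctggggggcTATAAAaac
Actc1, chr2:114052876-114053025, minus strand: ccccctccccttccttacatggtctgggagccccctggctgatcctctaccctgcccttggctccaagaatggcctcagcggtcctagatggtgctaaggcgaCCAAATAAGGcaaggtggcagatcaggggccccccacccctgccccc
Acta1, chr8:123894776-123894925, minus strand: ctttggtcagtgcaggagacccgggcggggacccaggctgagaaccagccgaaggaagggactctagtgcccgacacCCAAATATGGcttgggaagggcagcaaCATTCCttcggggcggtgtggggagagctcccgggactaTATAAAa
Myh4, chr11:67237662-67237811, plus strand: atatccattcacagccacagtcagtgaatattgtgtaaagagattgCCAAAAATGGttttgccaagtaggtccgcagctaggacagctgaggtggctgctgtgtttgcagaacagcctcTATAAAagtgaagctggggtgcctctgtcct
A match is a description of letters and not a site of binding. Both actin promoters and Myh4 hold a CArG box, and Nppa, Acta1 and Myh4 hold TATAAA within the printed stretch. Over the 250 bases before the start listed by RefSeq, which for 15 of 34 members lay inside the longest span annotated for the gene, a CArG box was found in 4 of the 34 members with a RefSeq promoter (11.8%; Actc1, Acta1, Myh4 and Ldb3) and in 1.5% of all 32851 promoters. MEF2 sites, which can contain TATAAA, were found in 6 members (17.6%; Mybpc3, Myoz2, Casq2, Ttn, Myh1 and Myh4) against 2.9% of all promoters. CATTCC was in 8 members (23.5%) against 12.6%, TATAAA in 7 (20.6%) against 12.4%, the T-box core AGGTGT in 7 (20.6%) against 11.8%, the GATA sequence AGATAA in 5 (14.7%) against 3281 of the 32851, and the NKX2-5 sequence TNAAGTG in 2 (5.9%; Nppa and Myh7) against 10.1%.

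Heart muscle RNA was present in every aorta, in an amount that varied from library to library within both groups. The 44 members together took 0.459, 0.562, 0.599, 0.124 and 0.292% of counts in wild-type aortas 1 to 5 and 1.09, 0.502, 0.999, 0.143 and 1.09% in cre aortas 1 to 5, against 0.00511% to 0.00880% in B1b cells. Wild-type aorta 4 and cre aorta 4 were far below the rest of their groups. The 13 heart members summed to 2699, 3372, 3327, 711 and 1776 CPM in the wild-type aortas and to 4875, 3117, 5937, 714 and 6420.2 CPM in the cre aortas. Cre aortas 1, 3 and 5 lay above every wild-type aorta, cre aorta 2 lay among them, and cre aorta 4 was close to wild-type aorta 4. The group means of this sum were 2377 ± 1133 and 4213 ± 2331 CPM (SD, n = 5 each), so the groups overlapped widely. Other tissues moved between libraries as well: 10 nerve and Schwann cell genes summed to 1914 CPM in cre aorta 4 and to 114 to 205 CPM in wild-type aortas, with 132 to 273 CPM in the other cre aortas. The 6 brown fat genes summed to 359.7, 441, 779.7, 623 and 1908 CPM in wild-type and 685, 759, 1777, 1865 and 661 CPM in cre aortas, highest in wild-type aorta 5 and cre aortas 3 and 4. Their part in the results below was not tested.

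**Figure D1:**
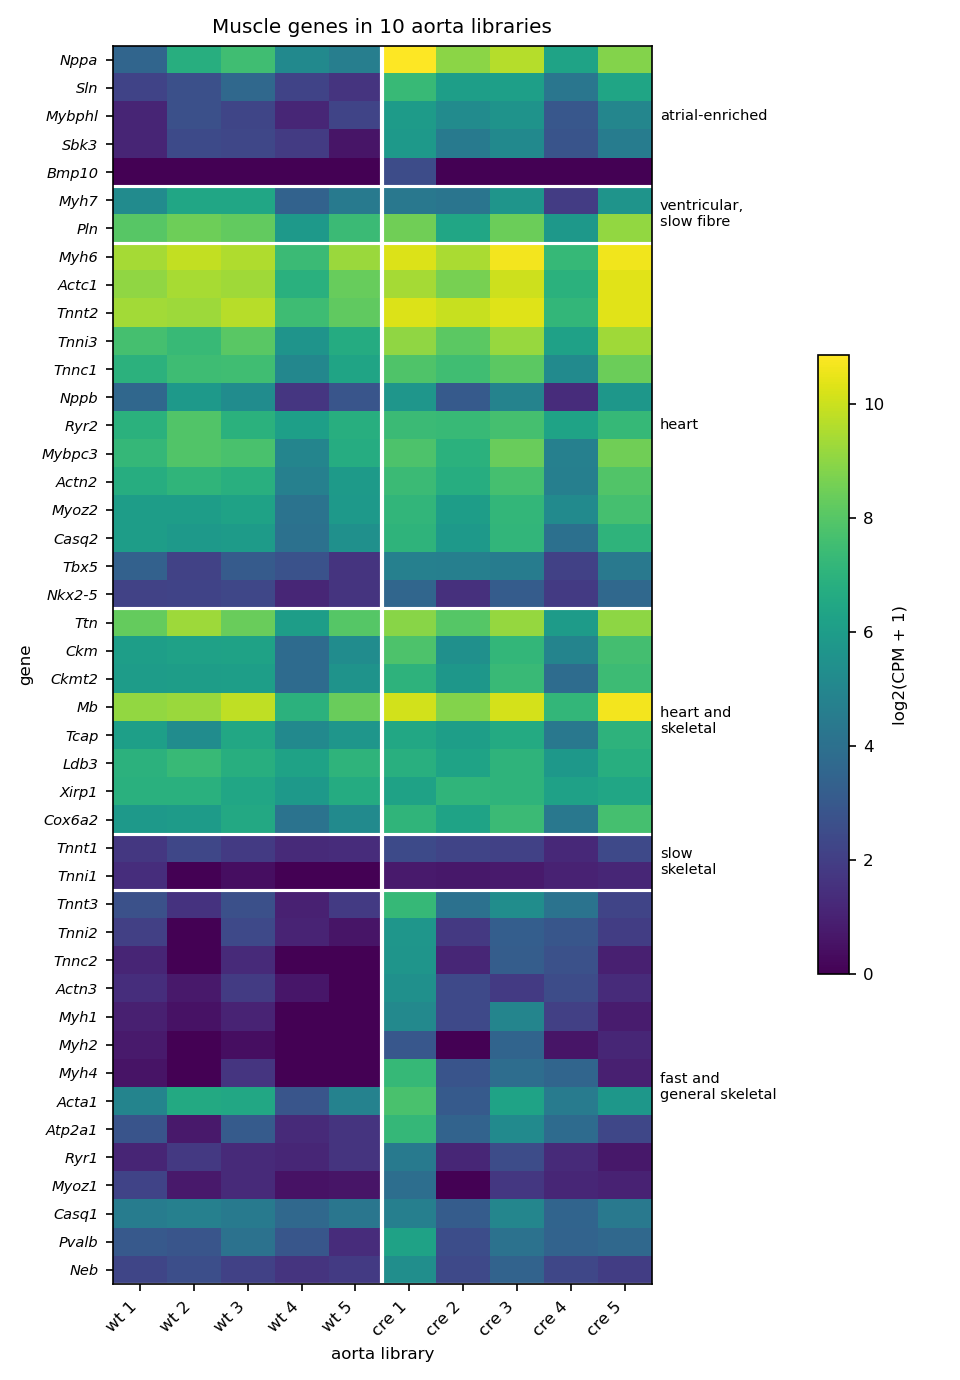
Colour gives log2(CPM + 1) of each of the 44 genes (rows, grouped by role) in each of the 10 aorta libraries (columns, wild type left of the white line, cre right of it). The atrial rows are brighter in the cre columns, the heart rows are dim in column 4 of both groups, and most fast skeletal rows are brightest in cre 1.

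The atrial-enriched members included the 3 genes of the set whose aorta groups did not overlap: Sln, Mybphl and Sbk3, all higher in cre. Of all tested genes, 1.65% were higher in cre without overlap. Sln encodes sarcolipin, the atrial inhibitor of the calcium pump. Its level was 3.6, 5.37, 11.9, 3.55 and 2.12 CPM in wild-type aortas 1 to 5 and 158, 67.8, 69.7, 18.2 and 83.8 CPM in cre aortas 1 to 5. The means were 5.31 ± 3.87 CPM (SD, n = 5) and 79.6 ± 50.5 CPM (SD, n = 5), a 14.98-fold ratio. Every cre aorta, even the one poor in heart RNA, was above the highest wild-type aorta. Mybphl, a myosin-binding protein of atrial muscle, measured 1.2, 5.37, 3.82, 1.28 and 3.70 CPM in the wild-type aortas and 61.3, 37.0, 46.5, 6.62 and 30.9 CPM in the cre aortas (means 3.07 ± 1.8 and 36.5 ± 20.2 CPM, SD, n = 5 each, ratio 11.9). Sbk3, a kinase gene read in atrial muscle, measured 1.2, 4.47, 3.98, 2.696 and 0.529 CPM and 57.6, 21.6, 35.1, 6.08 and 22.6 CPM (means 2.58 ± 1.71 and 28.6 ± 19.2 CPM, SD, n = 5 each, ratio 11.1). For these genes too the groups did not overlap, with cre aorta 4 the lowest and cre aorta 1 the highest of the cre aortas.

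Nppa, the gene of atrial natriuretic peptide, had the highest level per length of the atrial members (given below) and measured 10.8, 112, 184, 34.3 and 23.8 CPM in the wild-type aortas and 1864, 505, 817, 78.6 and 462 CPM in the cre aortas. The means were 73.0 ± 73.6 CPM (SD, n = 5) and 745 ± 678 CPM (SD, n = 5), a 10.2-fold ratio. The fitted log2 fold change of 3.33 became 2.65 without cre aorta 1 and 4.03 without wild-type aorta 3. Cre aorta 4 fell among the wild-type aortas, below wild-type aortas 2 and 3, so the groups overlapped. Nppa also differed widely among wild-type aortas, from 10.8 CPM in aorta 1 to 184.3 CPM in aorta 3. Bmp10, a growth factor of atrial and trabecular muscle, was counted in cre aorta 1 alone, with 19 counts (4.68 CPM). The other 9 aortas had 0 counts, which allows up to 0.405 CPM in the deepest of them and 1.85 CPM in the shallowest (3 counts, counting error only). Cre aorta 1 had the highest value for 5 of 5 atrial members. The sum of the 5 was 16.8, 127, 204, 41.9 and 30.1 CPM in the wild-type aortas and 2146, 631, 968, 109.6 and 599.6 CPM in the cre aortas.

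Both atrial myosin light chains were higher in every cre aorta than in any wild-type aorta, as were 1.65% of all tested genes. They are outside the set, but their list was also chosen with earlier results of these data known. It is given as a description. Myl7, the atrial regulatory light chain, measured 30.2, 28.4, 47.2, 27.2 and 36.5 CPM in the wild-type aortas and 557, 359, 427, 70.1 and 423 CPM in the cre aortas. Myl4, the atrial essential light chain, measured 46.6, 38.5, 60.1, 33.6 and 39.1 CPM and 711, 383, 475, 82.7 and 415 CPM. The groups overlapped for the other 4 atrial genes listed: Sbk2 at 0 to 0.795 CPM in wild-type and 0 to 6.16 CPM in cre aortas, Kcnj3 at 0.284 to 14.3 and 13.6 to 49.3, Kcnj5 at 1.99 to 6.35 and 2.97 to 26.3, and Kcna5 at 4.26 to 12.2 and 5.67 to 15.8 CPM. Of the 6 other atrial genes listed (Myl7, Myl4, Sbk2, Kcnj3, Kcnj5 and Kcna5), 5 passed the filter on low counts, 5 had a log2 fold change above 0 (50.2% of all tested genes did) and 0 passed an adjusted p of 0.05 in the edgeR fit (4 were higher at an unadjusted p under 0.05, as were 6.87% of all). The 4 pacemaker genes summed to 16.03 to 25.4 CPM in wild-type aortas and 21.7 to 64.6 CPM in cre aortas, with the highest sum in cre aorta 4, the library poorest in atrial RNA of its group. Isl1 (35.3 CPM) and Tbx3 (18.9 CPM) made most of that sum. The same library had the highest nerve and Schwann cell sum (1914 CPM), and a link between them was not tested. Hcn4, the pacemaker channel, stayed between 0 and 3.78 CPM in all 10.

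**Figure D2:**
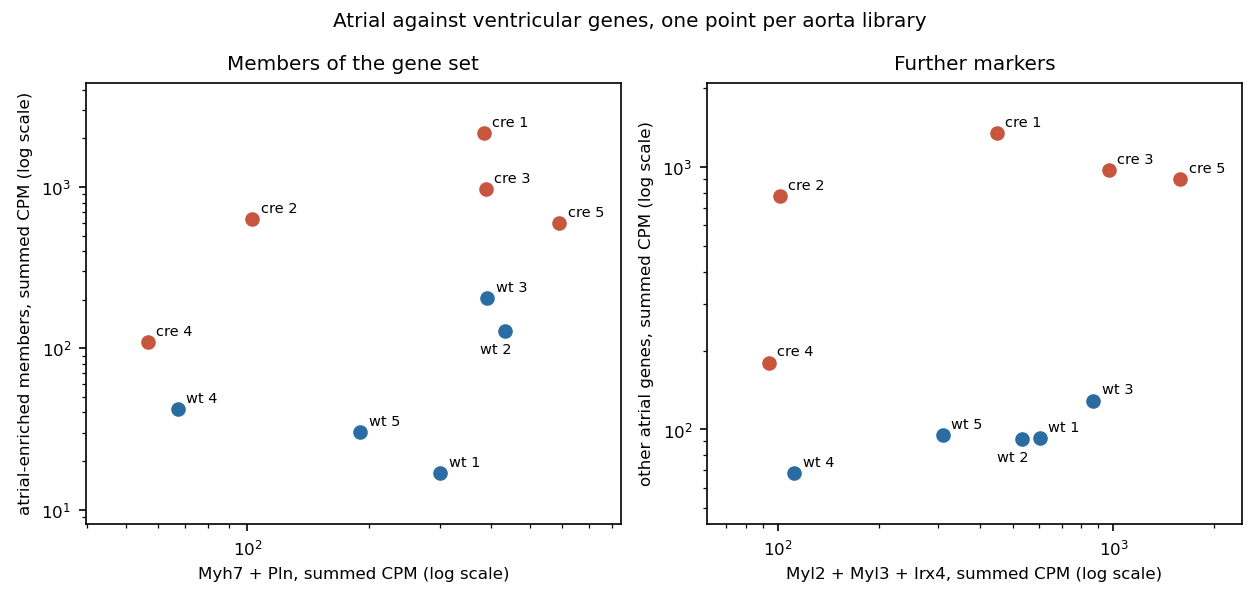
Each point is 1 aorta library, with summed CPM of ventricular genes on the horizontal and of atrial genes on the vertical axis, both on log scales. The left plot sets Nppa, Sln, Mybphl, Sbk3 and Bmp10 against Myh7 and Pln, and the right plot sets Myl7, Myl4, Sbk2, Kcnj3, Kcnj5 and Kcna5 against Myl2, Myl3 and Irx4. On the right the lowest cre point, 179.97 CPM, is above the highest wild-type point, 129 CPM.

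The ventricular and slow-fibre members did not follow the atrial ones. Myh7, the beta-myosin of ventricles under load and of slow fibres, measured 37.2, 84.6, 84.1, 9.649 and 21.2 CPM in the wild-type aortas and 19.2, 17.9, 50.04, 2.84 and 48.4 CPM in the cre aortas. The means were 47.3 ± 35.2 CPM (SD, n = 5) and 27.7 ± 20.7 CPM (SD, n = 5), a 0.585-fold ratio. The groups overlapped, and the highest values were those of wild-type aortas 2 and 3. Pln encodes phospholamban, the calcium pump inhibitor of ventricles and slow fibres, and measured 263, 349.9, 308, 57.8 and 169 CPM and 366, 85.1, 339.6, 53.8 and 543 CPM (means 229.7 ± 117 and 278 ± 206 CPM, SD, n = 5 each, ratio 1.21). Its spread within the cre group, from 53.8 CPM in aorta 4 to 543 CPM in aorta 5, covered the whole wild-type range.

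Among ventricular genes outside the set, Myl2, the ventricular light chain, measured 425, 355, 641, 83.7 and 221 CPM in wild-type and 307, 70.9, 745, 71.2 and 1158 CPM in cre aortas, and the groups overlapped. Cre aortas 2 and 4 were the lowest of the 10, and cre aorta 5 the highest. Cre aorta 2 thus held 776 CPM of the other atrial genes and 101 CPM of the ventricular genes Myl2, Myl3 and Irx4, while wild-type aorta 3 held 129 and 872 CPM. Leaving out cre aorta 5 turned the fitted log2 fold change of Pln from 0.28 to -0.12 and that of Nppb from 0.31 to -0.05 (0.94 without wild-type aorta 2).

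The amount of heart RNA differed much between aortas. Ratios between members within a library remove it only where both genes come from heart muscle alone, which was not tested. The ratios were formed from CPM per kilobase of transcript (CPM per kb), because longer transcripts collect more reads. The ratio of Sln to Pln, both inhibitors of the calcium pump, was 0.00801, 0.00898, 0.0226, 0.0359 and 0.00731 in wild-type aortas 1 to 5 and 0.253, 0.466, 0.120, 0.198 and 0.0903 in cre aortas 1 to 5. All cre values were above all wild-type values. The ratio of Sln to Tnnt2, the cardiac troponin T of the whole heart, was 0.00475 to 0.0171 in wild-type and 0.0462 to 0.108 in cre aortas, and that of Nppa to Tnnt2 was 0.0217 to 0.287 and 0.457 to 1.94. Neither ratio overlapped between groups, while the level of Nppa did.

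Myh7 ran the other way against the same gene. The ratio of Myh7 to Tnnt2 was 0.0105, 0.0249, 0.0185, 0.00998 and 0.0132 in the wild-type aortas and 0.00282, 0.00328, 0.00713, 0.00361 and 0.00676 in the cre aortas, lower in every cre aorta. The myosin ratio of Myh6 to Myh7 was 18.4, 11.1, 9.24, 18.0 and 28.6 in wild-type and 66.2, 40.6, 33.6, 54.8 and 33.8 in cre aortas, higher in every cre aorta. Of all stretches of 50 bases in the Myh6 transcript, 23.0% also occur in Myh7 (22.6% the other way), so how reads were split between them is uncertain. The pair lie 2.7 kb apart on chromosome 14 (GRCm38, Myh6 at 54941921 to 54968017, Myh7 at 54970684 to 54994626). Other genes overlap Myh6, Myh7 and Pln in RefSeq, and without strand their reads cannot be told apart. Ratios with these members share that limit. Ratios that set heart genes of all chambers against each other overlapped: Tnni3 to Tnnt2 was 0.310 to 0.430 in wild-type and 0.345 to 0.627 in cre aortas. Pln to Tnnt2 was 0.475 to 0.838 and 0.124 to 0.603, with cre aorta 2 the lowest. The natriuretic peptide pair, 13.5 kb apart on chromosome 4 (Nppb at 147985786 to 147987205, Nppa at 148000722 to 148002074), overlapped as well, with Nppa to Nppb at 0.864 to 13.7 in wild-type and 7.84 to 61.6 in cre aortas. All these ratios use levels from the contrast that chose the genes and carry no test. How often ratios of other genes do not overlap was not counted, so nothing is read from their separation.

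**Figure D3:**
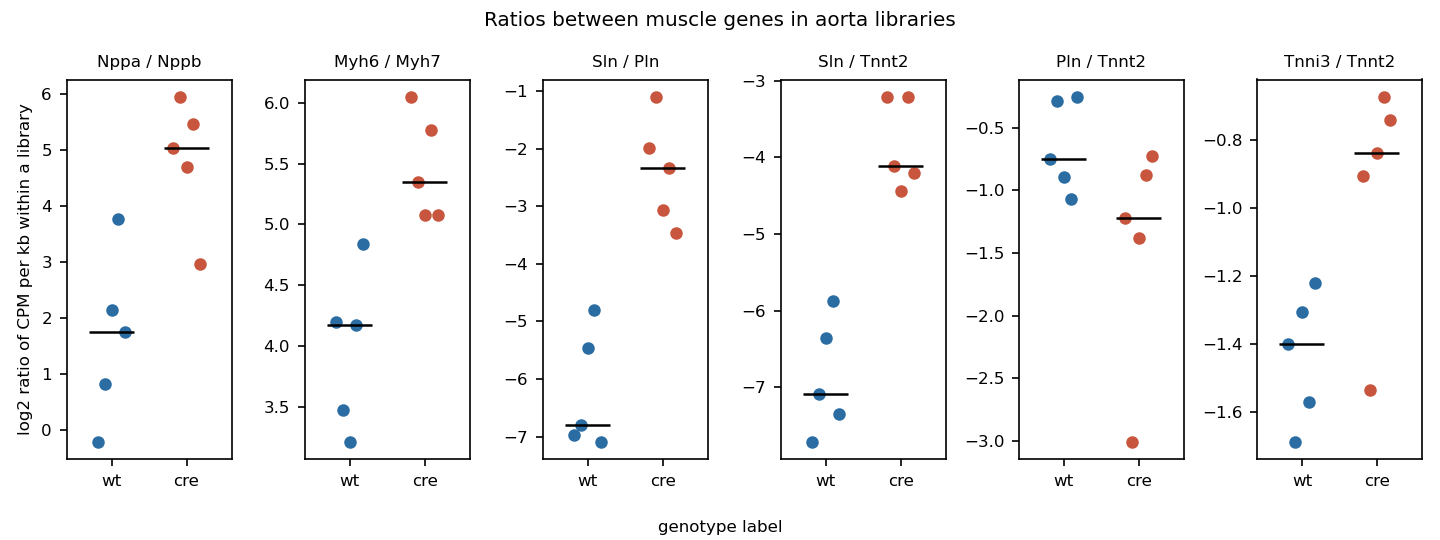
Points show log2 of the ratio of 2 genes in CPM per kb in each aorta library, wild type and cre side by side, for 6 pairs. The pairs Myh6 to Myh7, Sln to Pln and Sln to Tnnt2 show cre points all above wild-type points, while Nppa to Nppb, Pln to Tnnt2 and Tnni3 to Tnnt2 overlap.

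The 13 heart members had mean levels 1.15 (Ryr2) to 3.41 (Tbx5) times as high in cre aortas, with a median ratio of 1.79, and all had overlapping groups. Myh6, the alpha-myosin of the adult mouse heart, measured 669.5, 921, 761, 170.4 and 593 CPM in the wild-type aortas and 1246, 712, 1649, 152 and 1604 CPM in the cre aortas (means 623 ± 281 and 1072 ± 637 CPM, SD, n = 5 each, ratio 1.72). Tnnt2, cardiac troponin T, measured 646, 622, 834, 177 and 294 CPM and 1247, 997, 1285, 144 and 1312 CPM (means 515 ± 271 and 997 ± 493 CPM, SD, n = 5 each, ratio 1.94). In both genes the libraries numbered 4 were the lowest of their groups, and cre aortas 1, 3 and 5 exceeded all wild-type aortas, as cre aorta 2 did for Tnnt2. Actc1, cardiac alpha-actin, measured 527, 685, 637, 117 and 320.01 CPM and 683, 401, 1052, 121 and 1340.1 CPM (means 457 ± 236 and 719 ± 489 CPM, SD, n = 5 each, ratio 1.57). Here cre aorta 1 lay within the wild-type range, and only cre aortas 3 and 5 were above it.

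Among the remaining thin-filament genes, Tnni3, cardiac troponin I, measured 199, 157, 274, 48.4 and 103 CPM in the wild-type aortas and 540.4, 279, 584, 73.2 and 638 CPM in the cre aortas (means 156 ± 86.9 and 423 ± 239 CPM, SD, n = 5 each, ratio 2.71). Only cre aorta 4 was not above the wild-type range. Tnnc1, the troponin C of heart and slow fibres, ranged over 31.9 to 186 CPM and 35.5 to 343 CPM, with a ratio of means of 1.79. The thick-filament and Z-disc genes Mybpc3, Actn2 and Myoz2, for cardiac myosin-binding protein C, alpha-actinin and calsarcin, had ratios of 1.44, 1.69 and 2.13. Mybpc3 ranged over 29.9 to 244 CPM in wild-type and 25.5 to 363 CPM in cre aortas, Actn2 over 26.0 to 136 and 25.1 to 243 CPM, and Myoz2 over 16.7 to 74.7 and 35.7 to 202 CPM. Calcium release was represented by Ryr2, the cardiac release channel, with 68.4 to 243 CPM in wild-type and 79.0 to 203 CPM in cre aortas, and by the calcium store protein Casq2, with 15.6 to 64.3 and 15.3 to 142 CPM. Ryr2 had the smallest ratio of this group and Casq2 one of 1.98.

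Tbx5, a transcription factor of atria and left ventricle, measured 9.36, 3.36, 7.63, 5.68 and 2.12 CPM in the wild-type aortas and 25.6, 24.7, 22.5, 3.24 and 19.8 CPM in the cre aortas (means 5.63 ± 2.98 and 19.2 ± 9.18 CPM, SD, n = 5 each, ratio 3.41). Of the cre aortas, 1, 2, 3 and 5 lay between 19.8 and 25.6 CPM, above the wild-type maximum of 9.36 CPM, and 4 lay within the wild-type range. Nkx2-5, the cardiac homeobox factor, measured 3.36, 3.58, 3.98, 1.28 and 2.12 CPM and 10.8, 1.85, 8.06, 2.57 and 11.9 CPM. Cre aorta 2 was below most wild-type aortas for Nkx2-5 but high for Tbx5. Its Nkx2-5 value rests on 3 counts in the shallowest library, so its place is uncertain. Nppb, brain natriuretic peptide of stretched ventricles, measured 11.3, 57.3, 37.8, 2.27 and 6.35 CPM and 51.5, 7.40, 28.5, 1.62 and 53.2 CPM (means 23.0 ± 23.7 and 28.4 ± 24.0 CPM, SD, n = 5 each, ratio 1.24), and unlike its neighbour Nppa it was highest in wild-type aorta 2. Cre aorta 5 was the highest library for 8 heart members, cre aorta 3 and wild-type aorta 2 for 2 each, and cre aorta 1 for 1. Of the 18 other heart genes, such as Gata4 and Csrp3, all 18 were tested, 14 had a log2 fold change above 0 (50.2% of all tested genes) and 0 passed the adjusted threshold (3 were higher at an unadjusted p under 0.05, against 6.87% of all).

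The 8 members shared by heart and skeletal muscle split between genes that followed the heart amount and genes that did not. Mb, myoglobin, the oxygen store, measured 544, 599, 916, 126 and 337 CPM in the wild-type aortas and 1127, 454, 1131, 146 and 1627 CPM in the cre aortas (means 504 ± 296 and 897 ± 592 CPM, SD, n = 5 each, ratio 1.78). Ttn, titin, the spring of the sarcomere, measured 313, 615, 331, 65.4 and 257 CPM and 486, 258, 567, 61.6 and 515 CPM (means 316 ± 197 and 378 ± 212 CPM, SD, n = 5 each, ratio 1.19). Both were lowest in the libraries numbered 4. The energy genes Ckm, Ckmt2 and Cox6a2, for muscle creatine kinase, its mitochondrial partner and a respiratory chain subunit, had ratios of 2.39, 2.07 and 2.31, and the titin cap Tcap one of 1.43. Ckm ranged over 12.8 to 75.5 CPM in wild-type and 28.6 to 224 CPM in cre aortas, Ckmt2 over 13.1 to 67.7 and 13.2 to 175, Cox6a2 over 16.5 to 93.5 and 19.2 to 203, and Tcap over 34.3 to 90.6 and 19.6 to 128 CPM, all with overlapping groups. Against Tnnt2 the energy genes overlapped between groups, Ckmt2 at 0.0558 to 0.120 in wild-type and 0.0402 to 0.101 in cre aortas and Cox6a2 at 0.142 to 0.199 and 0.131 to 0.256.

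Ldb3, the Z-disc protein cypher, measured 127, 160.4, 112, 76.2 and 133 CPM in the wild-type aortas and 115, 77.7, 133, 55.0 and 112 CPM in the cre aortas (means 122 ± 30.8 and 98.7 ± 31.6 CPM, SD, n = 5 each, ratio 0.811). Xirp1, an actin-binding repeat protein, measured 118, 117, 84.8, 58.2 and 103 CPM and 76.1, 135, 134, 73.9 and 86.5 CPM (means 96.1 ± 25.1 and 101 ± 30.8 CPM, SD, n = 5 each, ratio 1.05). Neither showed the deep fall of the heart genes in the libraries numbered 4: the ratio of Ldb3 to Tnnt2 was 0.0613 to 0.205 in wild-type and 0.0355 to 0.174 in cre aortas, and that of Xirp1 to Tnnt2 0.0196 to 0.0675 and 0.0117 to 0.0989, highest in wild-type aortas 4 and 5 and cre aorta 4. The direction of Ldb3 hung on the transcript counted. With the transcript of lowest total in place of the highest (35.8% of its counts), the log2 fold change went from -0.30 to 0.50.

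The skeletal members formed another pattern, set mainly by 1 library. Myh4, the myosin of the fastest fibres, measured 0.480, 0, 2.23, 0 and 0 CPM in the wild-type aortas and 155, 6.17, 13.8, 10.7 and 0.928 CPM in the cre aortas. Its 16 wild-type counts lay in aortas 1 and 3, while cre aorta 1 alone gave 629. The ratio of means was 68.9, the widest of the set, and the groups overlapped because cre aorta 5 was below wild-type aorta 3. Tnnt3, fast troponin T, measured 5.52, 2.01, 5.25, 0.993 and 2.64 CPM and 156, 15.4, 38.9, 16.5 and 3.71 CPM (means 3.28 ± 2.01 and 46.0 ± 62.6 CPM, SD, n = 5 each, ratio 14.0). Cre aortas 1 to 4 were above all wild-type aortas and cre aorta 5 among them. Atp2a1, the fast calcium pump, measured 5.999, 0.671, 7.63, 1.42 and 2.12 CPM and 149, 9.86, 35.3, 13.1 and 4.02 CPM (means 3.57 ± 3.06 and 42.3 ± 60.9 CPM, SD, n = 5 each, ratio 11.9), with cre aortas 1 to 4 again the highest.

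Cre aorta 1 held the highest value of 12 of the 14 fast and general skeletal members, and cre aorta 3 that of Myh2 and Casq1. Tnni2 and Tnnc2, fast troponins I and C, reached 51.0 and 50.2 CPM in cre aorta 1, against at most 8.54 and 8.30 CPM elsewhere. Actn3, the fast-fibre alpha-actinin, reached 42.6 CPM there and at most 4.73 CPM elsewhere. Ryr1, the skeletal release channel, Myoz1, a calsarcin, and Neb, the thin-filament ruler nebulin, reached 21.4, 14.0 and 40.9 CPM in it, and Pvalb, a calcium buffer of fast fibres that nerve cells also make, reached 74.6 CPM. Without cre aorta 1 the fitted log2 fold change went from 5.79 to 3.57 for Myh4, from 3.80 to 2.48 for Tnnt3, from 3.51 to 2.07 for Atp2a1, from 2.87 to 1.42 for Tnni2, from 3.14 to 1.35 for Actn3 and from 1.85 to 0.61 for Neb. Without wild-type aorta 3 it was 8.04 for Myh4, 3.50 for Tnni2 and 3.77 for Actn3.

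The fast myosins Myh1, Myh2 and Myh4 lie in a row on chromosome 11, 2.6 and 13.2 kb apart, and share 9.9% to 20.1% of their stretches of 50 bases, so the split between them is uncertain. Their sum avoids that split: 2.16, 0.447, 3.66, 0 and 0 CPM in the wild-type aortas and 195, 10.5, 53.8, 14.3 and 2.94 CPM in the cre aortas. Cre aortas 1 to 4 were above every wild-type aorta, and cre aorta 5 was within the wild-type range. Myh1 ranged over 0 to 1.11 CPM in wild-type and 0.773 to 33.7 CPM in cre aortas, and Myh2 over 0 to 0.720 and 0 to 10.2 CPM. Acta1 and Casq1 had the highest mean wild-type levels of the 14. Acta1 was highest in cre aorta 1, like most of the 14, at 2.23 times the next library. Its other cre values lay within its wild-type range. Casq1 was not highest in cre aorta 1. Acta1, skeletal alpha-actin, which heart muscle also makes, measured 29.3, 96.2, 89.2, 6.24 and 27.0 CPM and 214, 7.40, 77.1, 22.0 and 53.1 CPM (means 49.6 ± 40.5 and 74.8 ± 82.6 CPM, SD, n = 5 each, ratio 1.51), and leaving out cre aorta 1 turned its log2 fold change from 0.59 to -0.30. It shared no stretch of 50 bases with Actc1. Casq1, the skeletal calcium store protein, measured 22.8, 25.3, 21.5, 11.8 and 18.5 CPM and 24.9, 8.02, 30.8, 10.4 and 20.1 CPM (means 19.97 ± 5.19 and 18.8 ± 9.62 CPM, SD, n = 5 each, ratio 0.944), and it was one of the flattest members. Without Acta1 and Casq1, the other 12 summed to 35.5, 18.3, 47.1, 14.5 and 12.2 CPM and 795, 54.3, 180.5, 77.3 and 32.3 CPM, with cre aorta 5 within the wild-type range and the other cre aortas above it.

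**Figure D4:**
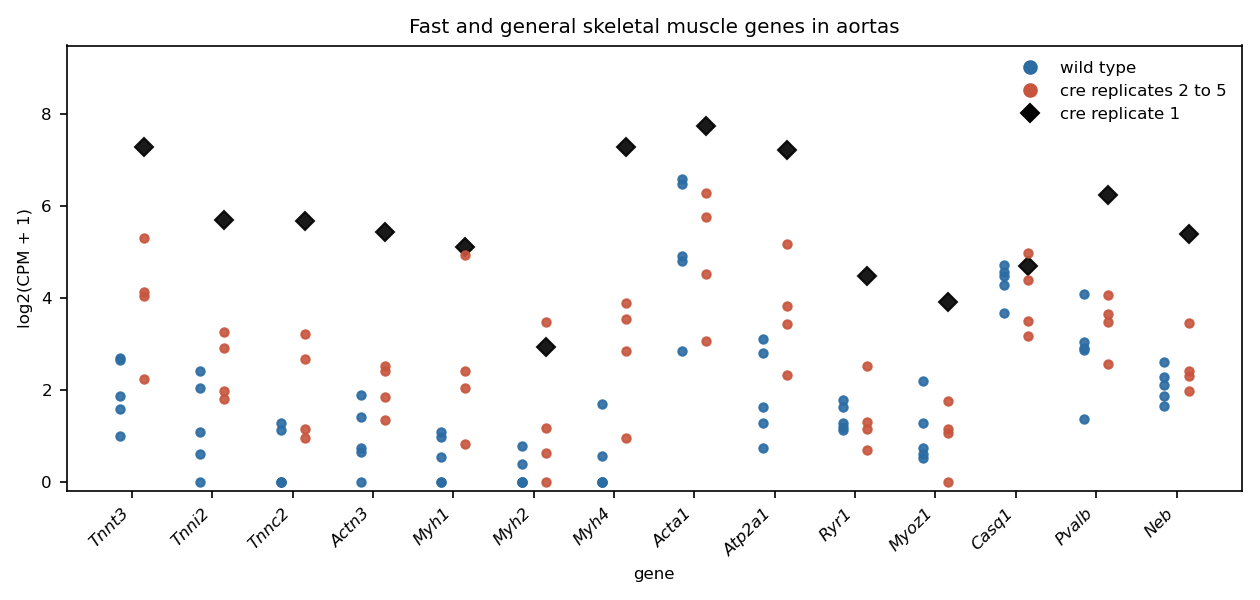
For each of the 14 fast and general skeletal genes, points give log2(CPM + 1) in the 5 wild-type aortas and the 5 cre aortas, with cre replicate 1 drawn as a black diamond. The diamond is the highest point for 12 genes, and Acta1 and Casq1 are well above 0 in all wild-type aortas.

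The slow skeletal members stayed low. Tnnt1, slow troponin T, measured 2.40, 4.03, 2.54, 1.42 and 1.59 CPM in the wild-type aortas and 4.43, 3.70, 3.32, 1.35 and 4.33 CPM in the cre aortas, and Tnni1, slow troponin I, 1.68, 0, 0.318, 0 and 0 CPM and 0.739, 0.617, 0.711, 1.08 and 1.24 CPM. The sum of both had group means of 2.79 ± 1.28 and 4.30 ± 1.22 CPM (SD, n = 5 each), in cre aorta 1 (5.17 CPM) no higher than in cre aorta 5 (5.57 CPM). The 23 other skeletal genes, among them the fast light chains Myl1 and Mylpf, summed to 229, 294, 263, 101 and 184 CPM and 507, 178, 467, 117 and 428 CPM. Mylpf was 52.5 CPM in cre aorta 1 and at most 7.57 CPM in the other 9. Of the 23, 11 were tested, 10 had a log2 fold change above 0 (50.2% of all tested genes) and 0 passed the adjusted threshold (2 were higher at an unadjusted p under 0.05, against 6.87% of all). The atrial and the skeletal sums shared their highest library but not their order. Cre aorta 5 held 599.6 CPM of atrial-enriched and 32.3 CPM of the 12 skeletal members, and cre aorta 4 held 109.6 and 77.3 CPM.

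Set against each other per kilobase, the most abundant members of the wild-type aortas were Mb (477 ± 279.9 CPM per kb, SD, n = 5), Tnnt2 (458 ± 241), Actc1 (310.5 ± 160.4) and Pln (298 ± 152). Tnni3 (171 ± 95.3), Tnnc1 (167 ± 90.3) and Myh6 (104 ± 46.7) followed, then Nppa (84.4 ± 85.1). These SDs give the spread between libraries and not that of a difference between genes. Within the wild-type libraries the ratio of Pln to Tnnt2 was 0.475 to 0.838, and that of Mb to Tnnt2 0.756 to 1.22. At the low end stood Sln (4.03 ± 2.94), Mybphl (2.41 ± 1.41), Sbk3 (0.817 ± 0.542), Myh4 (0.0900 ± 0.160) and Bmp10 at 0. In the cre aortas Tnnt2 (888 ± 439), Nppa (862 ± 784) and Mb (848 ± 559) were at the top with overlapping spreads, and Sln was at 60.4 ± 38.3 CPM per kb.

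Over the whole set, the mean CPM was higher in cre aortas for 41 of 44 members and lower for Myh7, Ldb3 and Casq1. Of the 44, 37 passed the filter on low counts, and Bmp10, Tnni1, Tnnc2, Myh1, Myh2, Ryr1 and Myoz1 did not. Among these 37 the median log2 fold change was 0.995, and 34 were above 0, where 50.2% of all 13364 tested genes were above 0 with a median of 0.00233. None of the 37 reached an adjusted p of 0.05 in edgeR, where 0.015% of all tested genes did (2 genes). With DESeq2, 10 of the members and 240 of all genes passed, and 1 member, Sln, passed with limma-voom with quality weights. An unadjusted p under 0.05 with a higher level was found for 13 members, the background being 6.87%. The groups did not overlap for 3 members, Sln, Mybphl and Sbk3, all higher in cre aortas, with a background of 1.65%. Because this contrast chose the set, nothing is read from these counts. The same holds for the counts of the other atrial, heart and skeletal lists, which were chosen with earlier results of these data known.

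B1b cells were the contrast that did not choose the genes. In sorted cells most members were at or near 0 counts, and 7 of the 44 passed the filter there (Ryr1, Ryr2, Ttn, Tnnt3, Tnni2, Atp2a1 and Neb). None of the 7 differed between cre and wild-type B1b cells past an adjusted p of 0.05 (edgeR quasi-likelihood test with Benjamini-Hochberg adjustment), where 0.707% of all 11732 tested genes did. DESeq2 called 0 of them too, and 2 had an unadjusted p under 0.05, with a background of 13.3%. Ryr1 measured 36.3, 31.7 and 29.7 CPM in the 3 wild-type and 19.8, 24.2 and 28.2 CPM in the 3 cre libraries. All cre libraries were below all wild-type ones, as for 8.66% of all tested genes (log2 fold change -0.43, SE 0.16, adjusted p = 0.222, 95% interval -0.76 to -0.11). Ttn measured 13.6, 6.81 and 4.46 CPM and 5.25, 4.69 and 3.63 CPM (log2 fold change -0.87, SE 0.37, adjusted p = 0.319), with overlapping groups. Ryr2 (log2 fold change -0.93, SE 0.62, adjusted p = 0.559), Tnni2 (log2 fold change -1.09, SE 0.54, adjusted p = 0.4) and Atp2a1 (log2 fold change -0.24, SE 0.38, adjusted p = 0.852) had intervals that span 0 (-2.22 to 0.37, -2.23 to 0.05 and -1.04 to 0.56). The same held for Tnnt3 (log2 fold change 0.15, SE 0.42, adjusted p = 0.922) and Neb (log2 fold change 0.11, SE 0.51, adjusted p = 0.957). The atrial-enriched members summed to 2.97, 0.899 and 2.61 CPM in wild-type and 1.59, 1.17 and 1.11 CPM in cre B1b cells, and none of the 5 passed the filter there.

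The wild-type libraries alone, 5 aortas against 3 B1b libraries scaled together, showed where each gene was counted. Of the 44 members, 36 passed the filter, 30 were higher in aortas at an adjusted p under 0.05 (edgeR quasi-likelihood test), 1 was lower and 5 did not pass, where 40.4% of all 14339 tested genes were higher and 35.4% lower. Most members are near 0 in B1b cells and passed the filter through their aorta level, so nothing is read from these counts. Myh6 was at 0.310 ± 0.340 CPM in B1b cells (SD, n = 3) and 617 ± 276 CPM in aortas (SD, n = 5), and Nppa at 0.885 ± 0.522 and 72.3 ± 72.7 CPM. Sln, Casq1 and Nkx2-5 had 0 counts in all 3 wild-type B1b libraries, so no fold change is given for them. The 7 members that also passed the filter within B1b cells can be compared. Of these, Ryr2, at 2.03 ± 0.942 CPM in B1b cells and 132 ± 63.9 CPM in aortas, was higher in aortas (log2 fold change 6.04, SE 0.51, adjusted p = 1.14e-06), as was Ttn, at 8.31 ± 4.73 and 313 ± 194 CPM (log2 fold change 5.25, SE 0.81, adjusted p = 0.000391).

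Ryr1 was the member lower in aortas. It measured 36.2, 31.8 and 30.0 CPM in the wild-type B1b libraries and 1.19, 2.42, 1.42, 1.27 and 2.12 CPM in the wild-type aortas (log2 fold change -4.33, SE 0.25, adjusted p = 6.63e-09, 95% interval -4.87 to -3.79). Every wild-type aorta was far below every wild-type B1b library. A pair of long noncoding genes and a microRNA gene overlap Ryr1 in RefSeq, and without strand their reads cannot be told from those of Ryr1. Other members, among them Atp2a1, Tnnt3 and Neb, also have overlapping genes, with the same limit. Tnnt3 (log2 fold change -0.14, SE 0.54, adjusted p = 0.822), Tnni2 (log2 fold change -0.85, SE 0.70, adjusted p = 0.285), Atp2a1 (log2 fold change -0.51, SE 0.61, adjusted p = 0.459) and Neb (log2 fold change -0.20, SE 0.49, adjusted p = 0.728) did not pass the threshold between wild-type aortas and B1b cells. Sbk3, the other member that did not pass the threshold, had 24 counts in wild-type B1b cells and did not pass the filter within B1b cells. No difference between tissues is therefore read for Sbk3 from the fit. It measured 1.48, 0.386 and 1.10 CPM in the wild-type B1b libraries and 1.19, 4.41, 3.93, 2.69 and 0.530 CPM in the wild-type aortas, with overlapping groups.

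**Figure D5:**
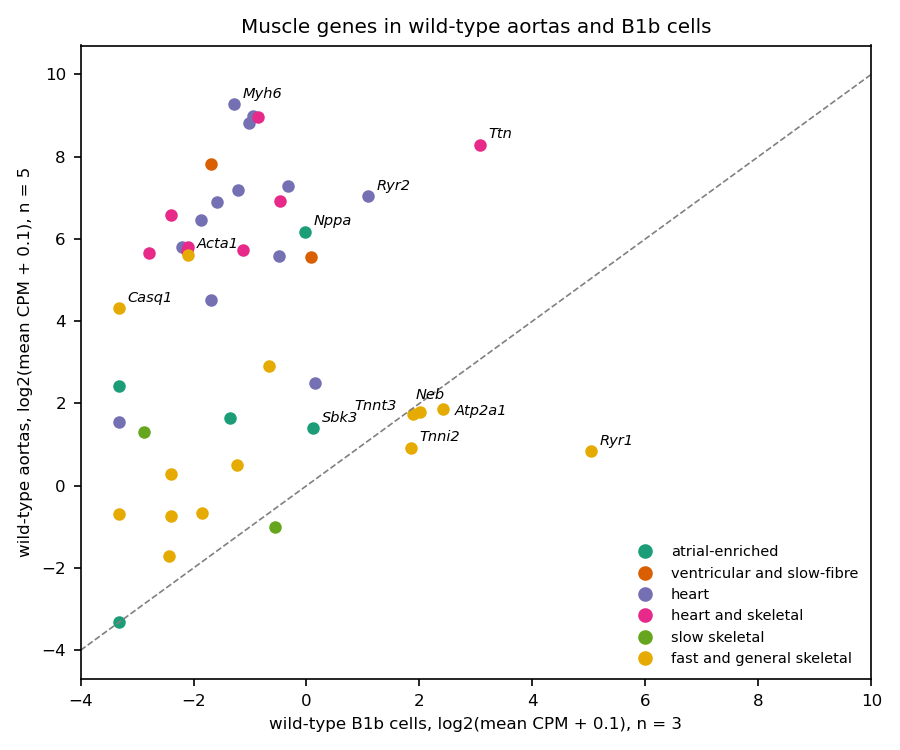
Each point is 1 of the 44 genes, with log2(mean CPM + 0.1) in wild-type B1b cells (n = 3) on the horizontal and in wild-type aortas (n = 5) on the vertical axis, coloured by role. The dashed line marks equal levels: heart genes lie far above it, Tnnt3, Tnni2, Atp2a1 and Neb lie on or near it, and Ryr1 lies below it.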

How the data were processed

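Whole aortas (5 wild-type, 5 cre) and sorted peritoneal B1b cells (3 wild-type, 3 cre) were sequenced as mRNA libraries, and groups were taken from the genotype labels. The tools listed are STAR 2.5.2b and CASAVA 1.8.2, and the build listed is mm10, per the submitters' processing notes. The table deposited by the authors gives unnormalized counts for each RefSeq transcript. How these were counted, and whether by strand, is not given in the sources used here.

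Of 35745 transcripts, 35435 took a gene name from RefSeq, 193 from GENCODE and 117 none (0.416% to 4.17% of a library's counts). The transcript of highest total was kept per gene, leaving 24562 entries. CPM used library sizes scaled by trimmed mean of M-values, separately in aortas, in B1b cells and in the comparison of wild-type tissues, so CPM are compared across tissues only in the last. Tests used edgeR 4.0.16 (quasi-likelihood, robust, filterByExpr, Benjamini-Hochberg over all tested genes) in R 4.3.3 with limma 3.58.1, and DESeq2 1.42.0 as an alternative. The code was tested on simulated data with known changes. Replicate numbers follow sample order and link no libraries across groups. Since no label ties a library to its own mouse, p-values measure only the spread between samples, which may be technical. The members, their roles and the other lists were chosen with earlier results of these data known. All members could be named; of other lists, heart and skeletal genes and defining markers could be. Positions are on GRCm38, and 34 of 44 members matched a RefSeq promoter. Intervals and limits cover counting error only where they rest on counts of 1 library. Alternatives were other scalings, no filter, another transcript per gene, other tests, no shallow libraries and each replicate left out.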

Additional observations from a re-analysis of the deposited data

Results flagged for a closer look

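Members were marked where 1 of the 5 aortas of a group stood apart from the other 4 by Dixon's criterion on the gap over the range. Chance alone meets it in about 1 in 20 groups of normally distributed values. That rate need not hold for CPM, which are skewed and often near 0. The share of all tested genes that meet it was not counted, so the marks are a description. Cre aorta 1 stood above the other cre aortas for 11 members. For 10 of them, all fast or general skeletal genes, the values in CPM with the next highest cre aorta were 156 and 38.9 for Tnnt3, 51.0 and 8.54 for Tnni2, 50.2 and 8.30 for Tnnc2, 42.6 and 4.73 for Actn3, and 155 and 13.8 for Myh4. The same library led with 149 against 35.3 CPM for Atp2a1, 21.4 against 4.74 for Ryr1, 14.0 against 2.37 for Myoz1, 74.6 against 15.9 for Pvalb and 40.9 against 9.96 for Neb. The other was atrial, Bmp10, with 4.68 CPM against 0. These genes share that library, so the marks are not independent of each other.

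Cre aorta 4 stood below the other cre aortas for Tnnt2, at 144 CPM with 997 the next lowest, and for Tbx5, at 3.24 CPM with 19.8 the next lowest. In the wild-type group, aorta 1 stood above the rest for Tnni1, at 1.68 against 0.318 CPM (7 counts), and aorta 3 for Myh4, at 2.23 against 0.480 CPM (14 counts).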

How the results depend on the processing

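In aortas, 2 genes passed over all genes tested. The number was 240 with DESeq2 (163 higher, 67.9% of them, against 100% in edgeR), 6 without robust estimation, 1 with the transcript of lowest total, 9 with limma-voom with quality weights and 92 (79 higher) without the libraries under 2000000 counts. It ranged from 0 (without wild-type aorta 1 or 3 or cre aorta 1) to 14 (without cre aorta 4) when 1 aorta was left out. Of the members, 0 passed. The number was 10 with DESeq2, 2 without robust estimation and 1 with limma-voom with quality weights. With 1 aorta left out it was 0 to 4 (4 without cre aorta 4). This contrast chose the members, so nothing is read from these numbers of members. In B1b cells, 83 of all genes passed, 169 with DESeq2, 327 without the filter on low counts and 35 (without wild-type library 1) to 103 (without cre library 3) with 1 library left out; for the members the number was 0 under all 12 alternatives. In B1b cells the small log2 fold change of Tnnt3 ranged from -0.12 (without wild-type library 1) to 0.47 with 1 library left out, and that of Neb from -0.25 to 0.82 (-0.25 and -0.01 without wild-type library 2 and 3, -0.24 without cre library 2). Between wild-type tissues, Tnnt3 ranged from -0.43 to 0.16 (0.16 without B1b library 2, 0.14 without aorta 4) and Neb from -0.58 to 0.50 (without B1b library 1). There the members passing numbered 30 to 34 (31 as reported) under 14 alternatives. The cause of these changes was not tested. No paired analysis was possible because the replicate numbers come from sample order and the labels link no library to another. Depth limits the skeletal members, several at 0 to 3 counts in wild-type aortas, and Bmp10.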
